A study of Homo sapiens with 39 samples.

Results

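The genes described here are 32 human genes of the endoplasmic reticulum (ER) folding machinery and of the unfolded protein response, chosen by name as a list of ER chaperone, ER degradation and response genes. All 32 were found in each of the 5 deposited tables, which hold 23710 gene symbols each. By role they were 8 luminal chaperones and their helpers, 7 disulfide and proline isomerases with related genes, 3 genes of the lectin folding cycle, 4 sensors and effectors, 7 genes of ER-associated degradation and 3 genes of translocation and export.

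Proteins that enter the ER are folded by chaperones of the lumen, joined by disulfide bonds and checked through their sugar chains before export. When unfolded protein builds up, the sensors ATF6, IRE1 (encoded by ERN1) and PERK (encoded by EIF2AK3) start the unfolded protein response. IRE1 splices the XBP1 transcript and ATF6 is cut to release a transcription factor, which together raise chaperone and degradation genes, while PERK slows translation and acts through ATF4.

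The study altered the amount of TRIM37, a ubiquitin ligase, in 2 human cell lines and sequenced RNA of 39 libraries in 9 groups. hTERT-RPE1 is an untransformed retinal pigment epithelial line immortalised with telomerase, and CHP-134 is a neuroblastoma line. For RPE1 there were 9 wild type and 9 TRIM37 knockout libraries, and for CHP-134 there were 3 wild type libraries and 3 of each of 2 mutant clones whose genotype is a partial TRIM37 knockout, all without drug. RPE1 clones 4 and 5 carried inducible TetOn-TRIM37, and each had 3 untreated libraries and 3 given doxycycline at 1 µM for 24 h. The labels name no clone for the RPE1 knockout, and each CHP-134 mutant is 1 clone. In both lines a trait of the clone and an effect of TRIM37 loss cannot be told apart. Each TetOn comparison was made within 1 clone, against its own untreated libraries. Doxycycline on cells without the construct was not analysed here, so in the TetOn clones the drug and TRIM37 cannot be told apart.

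The files give no value per library, so the spread between samples and the depth of each library are unknown. Each of the authors' deposited tables gives a mean count, a log2 fold change, a standard error (SE) of that value and a q, which is a p-value adjusted over genes. Genes with a q under 0.05 count as called, and "rose" and "fell" are used of called genes. Genes that the authors marked Low (mean count up to 10) or Outlier were left out of counts, which left 12153 to 13002 usable genes per table. TRIM37 had log2 fold changes of -1.95 in the RPE1 knockout, -1.66 and -1.75 in CHP-134 clones 1 and 2, and 3.19 and 2.64 in TetOn clones 4 and 5 in the authors' deposited tables, and the direction of each table was read from this gene. The keratin gene KRT8 had mean counts of 11700 to 20500 in the RPE1 tables and 0.531 and 0.306 in CHP-134, while the neuroblastoma markers TH (6.95 and 7.12) and DBH (5.26 and 9.18) were near 0 in CHP-134, all from the authors' deposited tables. No source used here says that replicates were separate cultures, so q values may measure technical spread only, and the titles number the RPE1 wild type libraries as 3 sets of 3. In bulk RNA, fewer cells that express a gene and less RNA per cell cannot be told apart.

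Promoter sequences are shown first because several of these genes share a known regulatory element. The ER stress response element is bound by ATF6 and XBP1 together with the CCAAT-binding factor NF-Y. RefSeq windows on GRCh38.p14, from 250 bases before to 50 bases after a gene's start, were matched by symbol for 28 of the 32 genes and not for PDIA3, SEC24D, DERL1 and DERL3. The element, spelled CCAAT, then any 9 bases, then CCACG and searched on both strands, lay in the windows of HSPA5, HSP90B1, PDIA6, CRELD2, CALR, CANX and XBP1, which is 7 of 28 (25%) against 25 of 27305 genes with a window (0.0916%). Its second form, spelled ATTGG, then any base, then CCACG, lay in those of SDF2L1, HYOU1 and HERPUD1, 3 of 28 (10.7%) against 0.0696% of genes. The unfolded protein response element TGACGTGG was found in HYOU1, 1 of 28 (3.57%) against 0.927% of genes. A match is a description of letters and not a measured binding site. Because the element was already known from several of these genes, the members' high share is no independent result.

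The promoters of 4 genes to which the results return are printed from 250 bases before the start up to the start, on the gene's own strand, with matches to the 3 elements in capitals. HSPA5 and XBP1 have 1 exact match each, HSP90B1 has 2 in opposite orientation, and HYOU1 has 2 exact copies of the second form, the first of which overlaps TGACGTGG. Near matches were not counted.
HSPA5 (chr9:125241344-125241593, minus strand): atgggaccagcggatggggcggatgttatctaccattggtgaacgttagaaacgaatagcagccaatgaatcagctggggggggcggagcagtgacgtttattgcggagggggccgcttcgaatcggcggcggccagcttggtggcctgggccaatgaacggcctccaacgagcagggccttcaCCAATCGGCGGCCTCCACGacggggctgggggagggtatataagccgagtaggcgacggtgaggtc
HSP90B1 (chr12:103930160-103930409, plus strand): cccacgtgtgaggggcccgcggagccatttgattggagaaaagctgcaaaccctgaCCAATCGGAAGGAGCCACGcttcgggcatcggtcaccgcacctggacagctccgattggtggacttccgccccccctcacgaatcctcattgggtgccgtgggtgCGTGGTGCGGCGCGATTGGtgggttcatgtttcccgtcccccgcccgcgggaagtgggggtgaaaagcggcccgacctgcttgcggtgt
XBP1 (chr22:28800570-28800819, minus strand): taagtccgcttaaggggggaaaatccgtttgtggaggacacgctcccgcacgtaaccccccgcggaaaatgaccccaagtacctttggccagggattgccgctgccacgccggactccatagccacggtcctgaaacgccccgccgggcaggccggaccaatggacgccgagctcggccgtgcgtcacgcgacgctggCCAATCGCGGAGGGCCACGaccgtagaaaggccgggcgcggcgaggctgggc
HYOU1 (chr11:119057206-119057455, minus strand): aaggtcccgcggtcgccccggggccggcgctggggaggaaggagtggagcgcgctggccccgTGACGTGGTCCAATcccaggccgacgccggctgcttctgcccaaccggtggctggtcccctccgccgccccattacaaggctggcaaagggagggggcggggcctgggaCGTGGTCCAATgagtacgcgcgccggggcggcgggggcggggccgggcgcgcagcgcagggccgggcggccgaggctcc

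Levels were compared between genes as the mean count per kilobase (kb) of the longest GENCODE 29 transcript, and ranked within a table because the tables were scaled separately. Each mean count is pooled over all libraries of its table, control and altered together, and the CHP-134 tables share their wild type libraries. The abundant luminal enzymes stood at the top in both lines. Of the usable members, 13 of 31 lay above percentile 90 of usable genes in the RPE1 knockout table, 12 of 30 in the CHP-134 clone 1 table and 12 of 29 in the clone 2 table. CALR, the calcium-binding lectin chaperone calreticulin, was the first of the members, with a level of 32107 per kb in the RPE1 knockout table and 12822 per kb in the CHP-134 clone 2 table, from mean counts in the authors' deposited tables. HSP90B1, the ER member of the HSP90 family, came second in both, at 29552 and 10257 per kb. HSPA5, the HSP70 chaperone BiP that holds the sensors inactive, had levels of 10108 and 5194 per kb. Of the sensors, ATF6 had a level of 544 per kb, EIF2AK3 of 182 and ERN1 of 10.9 in the RPE1 knockout table, where ERN1 was the lowest member. Other members of low level were DERL3 at 22.0, DNAJB9 at 164 and CRELD1 at 250 per kb.

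Some members of middle level held different ranks in the lines. EDEM1, a lectin that hands misfolded glycoproteins to degradation, lay at percentile 74.1 of usable genes in the RPE1 knockout table and at 39.6 on average in the CHP-134 tables, and ATF6 lay at 68.4 and 44.8. The co-chaperone gene DNAJB9, whose product keeps IRE1 inactive, went the other way, at 37.4 and 63.1, as did CRELD1 at 47.7 and 70.7. DERL3, a membrane protein of the degradation channel, had mean counts of 77.4 in the RPE1 knockout table and 32.8 and 36.8 in the TetOn tables, and was listed at 0 in both CHP-134 tables of the authors' deposited tables. These percentiles carry no error, since they rest on mean counts alone.

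**Figure D1:**
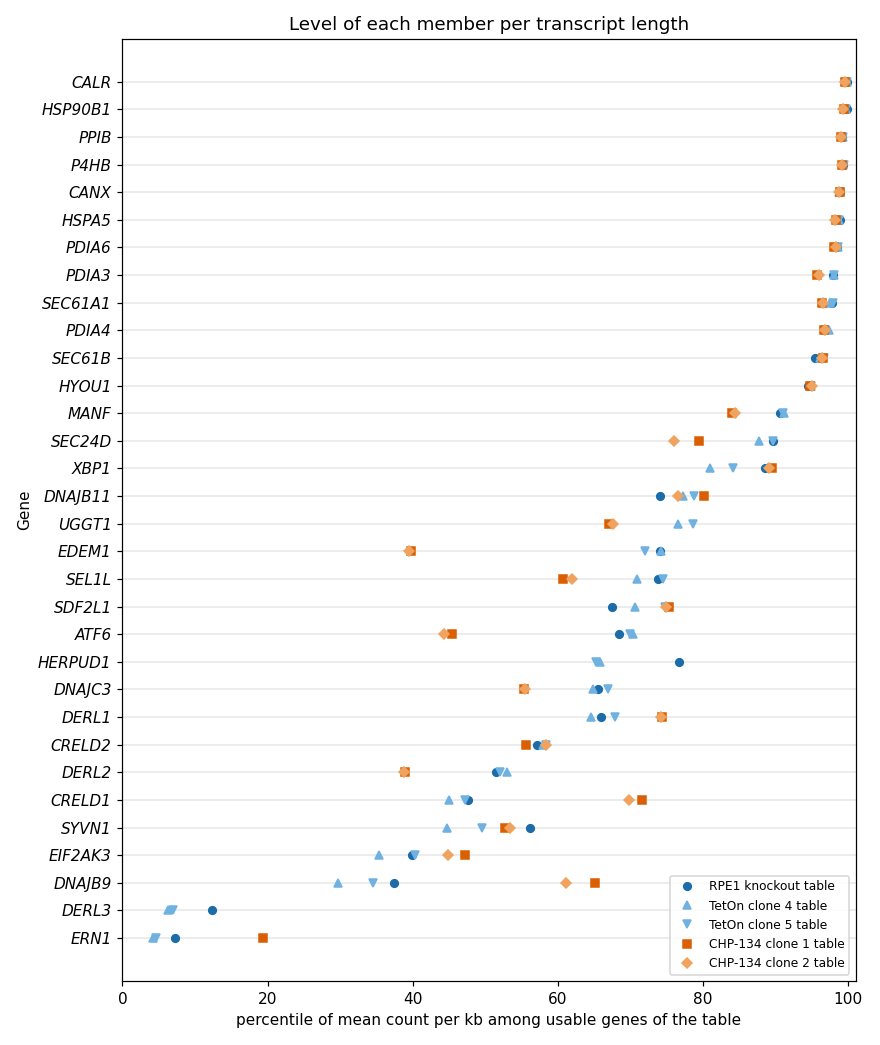
Level of each of the 32 members as the percentile of its mean count per kb among usable genes (horizontal axis) in each of the 5 tables (symbols), where the member was usable. CALR and HSP90B1 lie at the right edge in every table, and EDEM1 (74.1 against 39.6) and DNAJB9 (37.4 against 63.1) separate the lines in opposite directions.

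The TetOn clones show which transcripts differed after 24 h of TRIM37 induction. The members that passed the test all fell, led by BiP, and the falls were small. In TetOn clone 4, 5 of 32 members fell (15.6%), where 1.23% of usable genes fell, and 0 rose, where 0.716% did. In TetOn clone 5, 7 of 32 fell (21.9%), where 2.17% of usable genes fell, and 0 rose, where 0.795% did. The median SE of the members was 0.041 in clone 4 and 0.044 in clone 5, beside 0.067 and 0.0653 over all usable genes. A small change was thus more readily called in a member, and the shares were not matched for SE. In the other comparisons, too, the members had the smaller median SE. At an unadjusted p under 0.05, computed from the authors' log2 fold change over its SE, 12 members were lower and 0 higher in clone 4, and 14 lower and 0 higher in clone 5. The share of all usable genes at this unadjusted threshold was not computed, here or below. The median log2 fold change of the members was -0.057 in clone 4 and -0.081 in clone 5, beside 0.0016 and 0.0020 over all usable genes. Values under 0 in both clones, which have separate untreated libraries, were found for 25 of 32 members (78.1%) and for 26.9% of the 11778 genes usable in both tables.

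Among the luminal chaperones, HSPA5 fell by 14.6% in clone 4 (log2 fold change -0.228, SE 0.0263, q = 3.82e-15) and by 15.0% in clone 5 (-0.235, SE 0.0166, q = 2.88e-42) in the authors' deposited tables. Ranked by log2 fold change over SE, it was the 8th most negative of 12153 usable genes in clone 4 and the 4th of 12195 in clone 5. Its difference between the clones was -0.0070, with a 95% interval from -0.068 to 0.054. HSP90B1 also fell in both clones, at -0.117 (q = 0.0158) in clone 4 and -0.0984 (q = 0.000517) in clone 5 of the authors' deposited tables. HYOU1, a large HSP70-like exchange factor of BiP, fell in clone 4 (-0.106, q = 0.00484) and had a like value that missed the threshold in clone 5 (-0.108, q = 0.0651) in the authors' deposited tables. The co-chaperone gene DNAJC3 fell in clone 4 (-0.146, q = 0.0144) and was at -0.0592 (q = 0.784) in clone 5 in the authors' deposited tables. SDF2L1, a partner of the BiP co-chaperones, fell in clone 5 (-0.29, q = 0.00664) and was at 0.0632 (q = 0.905) in clone 4 in the authors' deposited tables. DNAJB9, DNAJB11 and MANF were not called in either clone.

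Among the isomerases, PDIA4 fell in both clones, at -0.0956 (q = 0.0157) in clone 4 and -0.115 (q = 0.000793) in clone 5 of the authors' deposited tables. PDIA3, which works on glycoproteins together with the lectins, fell in clone 5 (-0.0996, q = 0.0229) and was at -0.0576 (q = 0.474) in clone 4 in the authors' deposited tables. The other 5 genes of this role lay below 0 in both clones and were not called. CALR fell in clone 5 (-0.113, q = 0.000627) and was at -0.133 (q = 0.054) in clone 4 in the authors' deposited tables, while its membrane-bound relative CANX was not called in either. HSPA5, HSP90B1 and PDIA4 were thus the 3 members that fell in both clones, which is 60.0% of the clone 4 falls and 42.9% of the clone 5 falls. Of all genes usable in both clones, 77 fell in both, or 52.4% and 31.95% of the falls.

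Of the sensors and effectors, XBP1 fell in clone 5 (-0.194, SE 0.051, q = 0.00757) and was at -0.0727 (q = 0.627) in clone 4 in the authors' deposited tables. ATF6, ERN1 and EIF2AK3 lay between -0.15 and 0.018 over both clones, with q values of 0.511 or more. The 7 degradation genes lay between -0.12 and 0.034 and were not called, among them HERPUD1, itself a response gene, at 0.0038 and -0.118. The authors' deposited tables give -0.123 (q = 0.104) in clone 4 and -0.128 (q = 0.0771) in clone 5 for SEC24D, a cargo adaptor of the COPII export coat. A direct test of clone 5 against clone 4, which 0.221% of all genes passed, was passed by 0 of 32 members. At an unadjusted p under 0.05 the count was 1, SDF2L1, with a difference of -0.35 (95% interval -0.56 to -0.14, adjusted p = 0.193).

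By promoter, 3 of the 10 members with either form of the ER stress response element fell in clone 4 and 5 fell in clone 5, with medians of -0.078 and -0.11. Of the 18 other members with a window, 2 and 1 fell, with medians of -0.048 and -0.061. In the other comparisons the split did not have this order throughout. The medians with and without the element were -0.045 and -0.0415 in the RPE1 knockout, -0.101 and -0.043 in CHP-134 clone 1, and -0.052 and -0.095 in CHP-134 clone 2. This split is a description without a test.

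**Figure D2:**
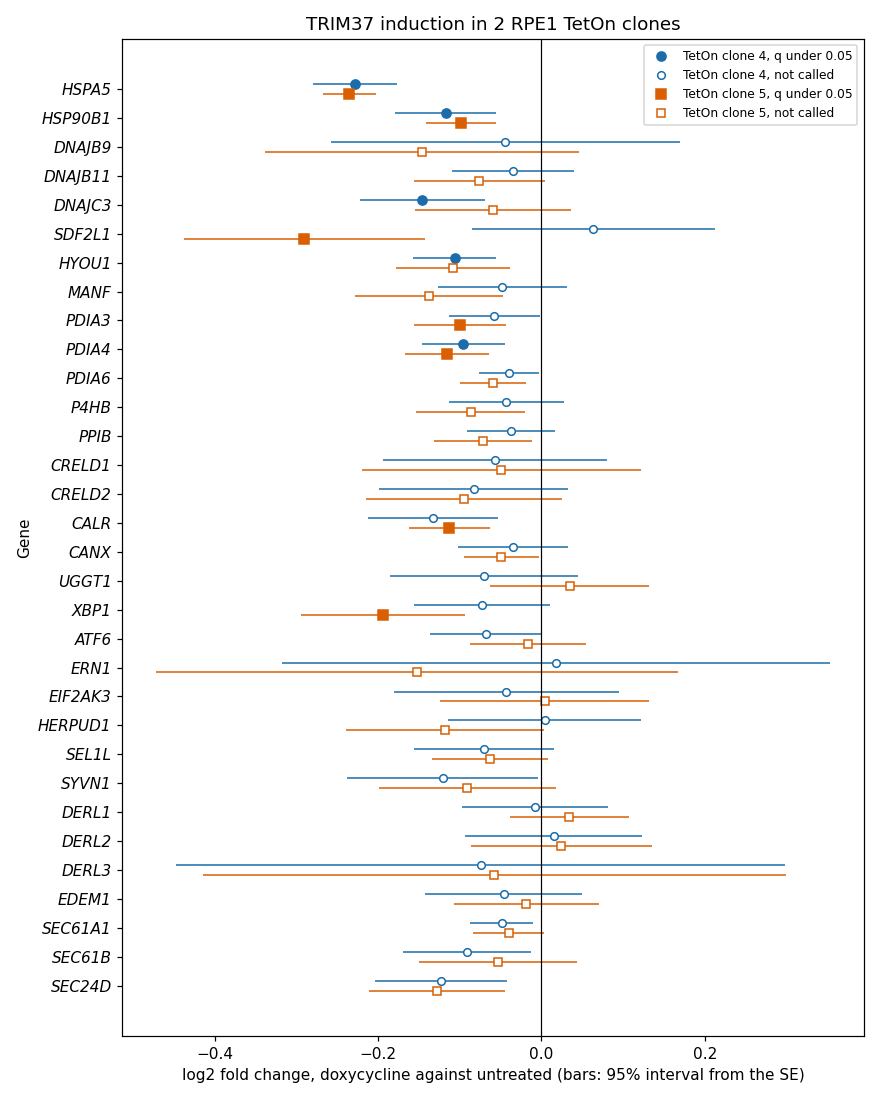
Log2 fold change after doxycycline (horizontal axis) of the 32 members in TetOn clone 4 (circles) and clone 5 (squares), with 95% intervals from the authors' SE and filled symbols where q was under 0.05. HSPA5 lies at -0.228 and -0.235 with short intervals, and SDF2L1 is the member whose symbols lie farthest apart.

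Other genes of the pathway were counted in lists chosen by name. Counts by the authors' q stand against the same shares of all usable genes as above. The unadjusted counts have no such share beside them and are not to be read against those shares. Of the other ER folding genes 0 rose and 1 of 33 fell in clone 4, and 0 rose and 2 of 32 fell in clone 5, by the authors' q (unadjusted p under 0.05: 0 up and 5 down, then 0 up and 4 down). The 2 in clone 5 were the collagen chaperone gene SERPINH1 (-0.183, q = 0.000105) and the glucosidase gene MOGS (-0.143, q = 0.000772) in the authors' deposited table. Translocon, signal peptidase and oligosaccharyltransferase genes gave 0 calls of 34 by the authors' q in either clone (unadjusted: 3 up and 0 down, then 2 up and 4 down). Of the ER export and retrieval genes, 3 of 30 fell and 0 rose in clone 4 (median -0.055), and 2 of 28 fell and 0 rose in clone 5 (median -0.043). At an unadjusted p under 0.05, 0 were up and 11 down in clone 4, and 1 was up and 12 down in clone 5, where the members had 0 up and 12 down, then 0 up and 14 down. Among the genes called was the retrieval receptor gene KDELR3 (-0.183, q = 0.0372 in clone 4 and -0.182, q = 0.00662 in clone 5 of the authors' deposited tables). Genes listed as ATF4 and integrated stress targets went 5 up and 0 down of 25 in clone 4 (median 0.13), where 0.716% of usable genes rose. They were led by the asparagine synthetase gene ASNS (0.228, q = 1.89e-11) and the serine synthesis gene PSAT1 (0.218, q = 6.96e-07) in the authors' deposited table. Whether PERK had a part in this was not tested. Clone 5 had 1 of 24 up and 0 down (median -0.014). At an unadjusted p under 0.05, 17 ATF4 targets were higher and 0 lower in clone 4, against 1 and 1 in clone 5.

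In the RPE1 knockout 11 of 31 usable members fell (35.5%), where 26.9% of usable genes fell, and 4 rose (12.9%), where 26.6% did. The median of the members was -0.0505, beside -0.0022 over all usable genes. XBP1, BiP and PERK fell, while the ER HSP90 rose on chromosome 12, whose genes had a raised median as a whole (0.51). With log2 fold change over SE rescaled to its central spread over all genes, 1 member was called, HSP90B1, and 0 fell. DERL3 was the 1 member called with a change of at least 1.5-fold, at -0.677, SE 0.171 (q = 0.000224) on a mean count of 77.4 in the authors' deposited table.

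Among the luminal chaperones HSPA5 fell by 14.9% (-0.232, SE 0.0294, q = 2.18e-14) and HYOU1 fell by 11.2% (-0.171, SE 0.0175, q = 1.25e-21) in the authors' deposited table. DNAJC3 fell as well (-0.0802, q = 0.0177), and SDF2L1 rose (0.264, SE 0.116, q = 0.0447) in the authors' deposited table. HSP90B1 rose by 34.2% (0.424, SE 0.0237, q printed as 0) in the authors' deposited table. The 590 genes of chromosome 12 with a mean count of at least 100 had a median log2 fold change of 0.51 in this comparison, and all 20 of the nearest measured neighbours of HSP90B1 rose, with a median of 0.57. Relative to the chromosome HSP90B1 was at -0.088, and relative to its neighbours at -0.15. DNAJB9, DNAJB11 and MANF were not called.

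XBP1, the transcription factor spliced by IRE1, fell by 26.4% (-0.443, SE 0.0477, q = 1.46e-19), and EIF2AK3 fell by 19.0% (-0.304, SE 0.0523, q = 2.72e-08) in the authors' deposited table. ATF6 (0.0072) and ERN1 (-0.0331) were not called in the authors' deposited table. The tables are per gene and do not separate spliced from unspliced XBP1. Of the degradation genes, SEL1L, the scaffold of the HRD1 ligase complex, fell (-0.144, q = 0.000476) and EDEM1 rose (0.0862, q = 0.0401), while SYVN1, which encodes HRD1, was at -0.0666 (q = 0.303) and HERPUD1 at -0.0505 (q = 0.297) in the authors' deposited table. SEC24D fell (-0.207, SE 0.0291, q = 6.19e-12), as did the translocon subunit gene SEC61A1 (-0.104, SE 0.0149, q = 1.91e-11) in the authors' deposited table. Of the isomerase group PDIA6 (-0.0803, q = 0.0108) and CRELD1 (-0.283, q = 0.000137) fell, and CRELD2, a stress-responsive relative of CRELD1, was at -0.0178 (q = 0.788) in the authors' deposited table. With chromosome medians subtracted, PDIA6 (-0.0596) and DNAJC3 (-0.064) were no longer called, and with neighbour medians subtracted neither PDIA6 (0.025) nor CANX (0.062) was. CANX rose (0.0726, q = 0.0322), CALR was at -0.0391 (q = 0.295), and UGGT1, the folding sensor of the lectin cycle, was marked Outlier in the authors' deposited table.

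Related lists in the knockout held calls in both directions, where 26.6% of all usable genes rose and 26.9% fell. ER export and retrieval genes went 4 up and 15 down of 29, with the COPII coat gene SEC23A at -0.3 (q = 1.17e-35) and TMED2, on chromosome 12, at 0.469 in the authors' deposited table. The other ER folding genes went 8 up and 10 down of 33, and the 2 named by smallest q, ERP29 (0.564) and FKBP11 (0.774), lie on chromosome 12, as do the degradation lectin gene OS9 (0.671) and TMBIM6 (0.678), which encodes an ER membrane protein, in the authors' deposited table. WFS1, an ER membrane protein gene on chromosome 4, was at -0.92 (SE 0.0491, q printed as 0) in the authors' deposited table. ATF4 targets went 10 up and 11 down of 28, and heat shock genes, which answer to HSF1, went 15 up and 3 down of 23.

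**Figure D3:**
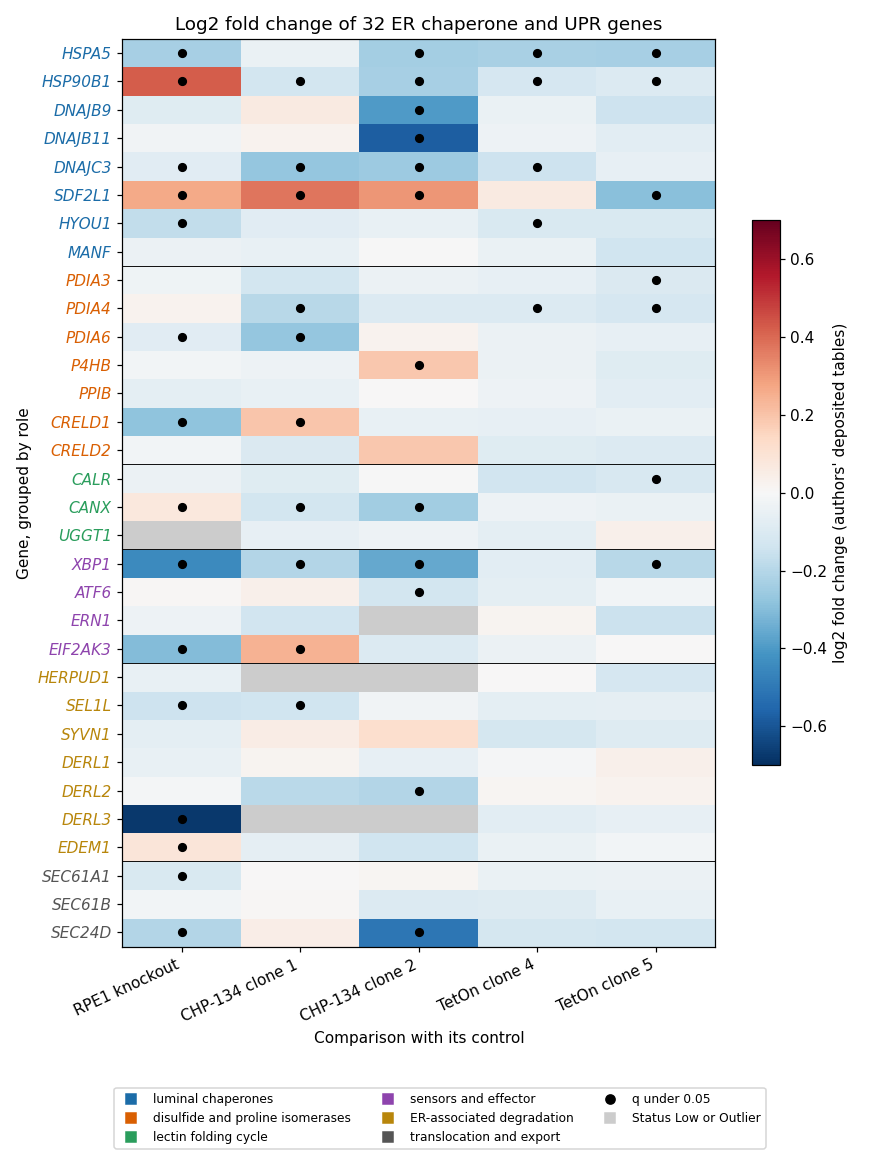
Log2 fold change of the 32 members (vertical axis, grouped by role) in the 5 comparisons (horizontal axis), blue where lower and red where higher than the control, with a dot where q was under 0.05 and grey where the Status was Low or Outlier. HSPA5 and XBP1 are blue with a dot in 4 columns each, and HSP90B1 is red in the RPE1 knockout (0.424) and blue in the other columns.

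The CHP-134 mutant clones were both compared with the same wild type libraries, so their values are set side by side. In clone 1, 7 of 30 usable members fell (23.3%), where 9.07% of usable genes fell, and 3 rose (10.0%), where 9.60% did. In clone 2, 10 of 29 fell (34.5%), where 24.2% of usable genes fell, and 2 rose (6.90%), where 22.0% did. The medians were -0.055 and -0.057, beside -0.0068 and -0.012 over all usable genes. With the statistic rescaled to its central spread, PDIA6 alone was called in clone 1 and 0 members in clone 2.

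XBP1 fell by 13.1% in clone 1 (-0.203, SE 0.0415, q = 2.82e-05) and by 21.9% in clone 2 (-0.357, SE 0.0396, q = 6.61e-18) in the authors' deposited tables. DNAJC3 fell in clone 1 (-0.271, q = 2.4e-05) and clone 2 (-0.252, q = 0.000202), and so did CANX (-0.127, q = 0.0169 in clone 1 and -0.241, q = 1.22e-07 in clone 2 of the authors' deposited tables). HSP90B1 fell in clone 1 (-0.126, q = 0.00322) and clone 2 (-0.23, q = 0.000899) in the authors' deposited tables, where its neighbours had medians of -0.087 and -0.19. Relative to them HSP90B1 was at -0.039 and -0.043 and was no longer called. With chromosome medians subtracted, CANX was no longer called in clone 1 (-0.088, adjusted p = 0.136), nor was DNAJC3 in clone 2 (-0.133, adjusted p = 0.0684). SDF2L1 rose, at 0.374 (SE 0.138, q = 0.0393) in clone 1 and 0.309 (SE 0.104, q = 0.00859) in clone 2 of the authors' deposited tables. With chromosome medians subtracted it was at 0.346 (adjusted p = 0.0647) and 0.161 (adjusted p = 0.209), no longer called in either. The authors' deposited tables mark HERPUD1 as Outlier in both clones and list -0.0747 (SE 0.131) in clone 1 and -0.604 (SE 0.132) in clone 2.

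Other calls were made in 1 clone. In clone 1 PDIA4 (-0.196, q = 0.00281) and SEL1L (-0.141, q = 0.0246) fell and CRELD1 rose (0.196, q = 0.023) in the authors' deposited table. In clone 2 ATF6 (-0.131, q = 0.037) and DERL2, a channel protein of degradation (-0.207, q = 0.0266), fell in the authors' deposited table. With neighbour medians subtracted, SEL1L (-0.067), ATF6 (-0.0888) and DERL2 (-0.154) were no longer called. Whether these 5 genes differ between the clones was tested with the rest, and none of the 5 passed.

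The clones differed for 8 of 29 members, where 20.5% of all genes passed the same test. Because the wild type libraries are shared, the summed SE is too large and the test is conservative. HSPA5 was at -0.0458 (q = 0.525) in clone 1 and fell in clone 2 (-0.236, q = 8.94e-05) in the authors' deposited tables, a difference of -0.19 (adjusted p = 0.0367). PDIA6, an isomerase known to attenuate IRE1 signalling, fell in clone 1 (-0.268, q = 1.35e-09) and was at 0.0273 (q = 0.598) in clone 2 of the authors' deposited tables, a difference of 0.30 (adjusted p = 2.86e-06). EIF2AK3 rose in clone 1 (0.243, q = 0.000735) and was at -0.0977 (q = 0.219) in clone 2 of the authors' deposited tables, a difference of -0.34 (adjusted p = 0.00121). P4HB, an abundant disulfide isomerase, rose in clone 2 (0.189, q = 0.000784) and was at -0.0354 (q = 0.721) in clone 1 of the authors' deposited tables, a difference of 0.22 (adjusted p = 0.018), and relative to its neighbours it was at -0.052 in clone 2 and was no longer called. XBP1 differed by -0.15 (adjusted p = 0.0383).

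The 3 largest differences between the clones were in genes whose chromosomal neighbours were lower as well. DNAJB11, a co-chaperone of BiP, was at 0.0266 in clone 1 and fell by 33.1% in clone 2 (-0.579, SE 0.0611, q = 1.23e-19) in the authors' deposited tables, a difference of -0.61 (adjusted p = 2.24e-13). Of its 20 nearest measured neighbours on chromosome 3, 18 fell and 0 rose in clone 2, with a median of -0.67, and DNAJB11 was at 0.096 relative to them. SEC24D was at 0.0486 in clone 1 and fell by 29.6% in clone 2 (-0.507, SE 0.0533, q = 7.53e-20) in the authors' deposited tables, a difference of -0.56 (adjusted p = 1.81e-14). Of its neighbours on chromosome 4, 14 fell and 0 rose, with a median of -0.345, and SEC24D was at -0.16 relative to them. DNAJB9 fell in clone 2 (-0.395, SE 0.114, q = 0.00202) in the authors' deposited table, a difference of -0.46 (adjusted p = 0.0144), and its neighbours had a median of -0.29. Relative to them DNAJB9 was at -0.10 and was no longer called (adjusted p = 0.485). XBP1 and HSPA5 had neighbour medians of 0.020 and 0.023 in clone 2, and -0.078 and -0.045 in the RPE1 knockout. The part of a regional change in these results was not tested.

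**Figure D4:**
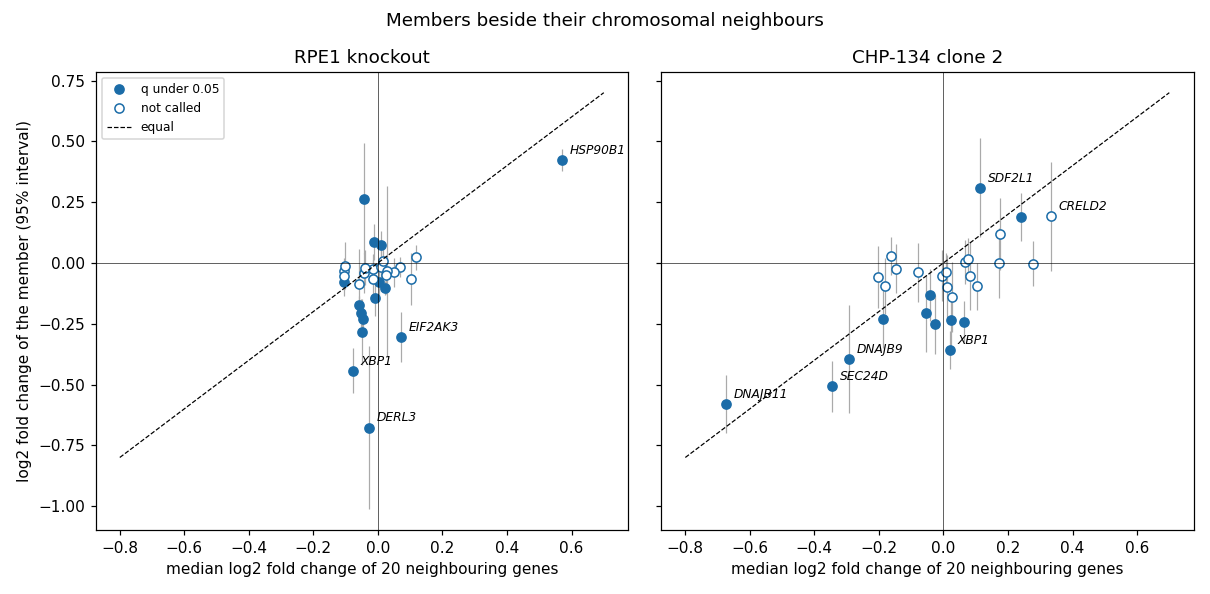
Log2 fold change of each usable member (vertical axis, bars 95% interval from the authors' SE) against the median of its 20 nearest measured neighbours (horizontal axis) in the RPE1 knockout and in CHP-134 clone 2, with filled symbols where q was under 0.05 and a dashed line of equal values. HSP90B1 (neighbours 0.57) and DNAJB11 (neighbours -0.67) lie far from 0 on both axes, and XBP1 lies below the line with neighbours near 0.

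Related lists in CHP-134 held more falls than rises in most cases. Of all usable genes, 9.60% rose and 9.07% fell in clone 1, and 22.0% rose and 24.2% fell in clone 2. Translocon, signal peptidase and oligosaccharyltransferase genes went 0 up and 8 down of 34 in clone 1 (unadjusted: 0 up and 12 down) and 2 up and 13 down of 34 in clone 2, where the translocon genes named by smallest q, SSR3 (-0.775) and SEC62 (-0.723), lie on chromosome 3 in the authors' deposited table. Other ER folding genes went 3 up and 8 down of 32 in clone 1, among them the prolyl hydroxylase gene P4HA1 (-0.547, q = 3.58e-08), and 4 up and 11 down of 32 in clone 2, among them P4HA2 (-0.759, q = 5.42e-15) in the authors' deposited tables. ATF4 targets went 5 up and 7 down of 25 in clone 1 and 5 up and 10 down of 25 in clone 2, where the stress gene SESN2 was at 0.923 and the secreted glycoprotein gene STC2 at -2.25 in the authors' deposited table. Heat shock genes went 1 up and 0 down of 20 in clone 1 (unadjusted: 2 up and 4 down) and 1 up and 14 down of 21 in clone 2, with HSP90AA1 at -0.505 (q = 1.35e-07) in the authors' deposited table.

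The RPE1 knockout was also tested against each CHP-134 clone, to compare loss of TRIM37 between the lines. Against clone 1, 10 of 29 members passed, where 34.1% of all genes did, and against clone 2, 11 of 28, where 46.5% did. Of 28 members tested against both, 5 passed against each clone with 1 sign. The share of all genes that did so was not computed, so this count cannot be called high or low. HSP90B1 was higher in the knockout, with differences of 0.55 and 0.65 (adjusted p = 3.34e-37 and 1.93e-21), which with each chromosome's median subtracted were 0.020 and 0.0996 (adjusted p = 0.77 and 0.228). CANX had differences of 0.20 and 0.31 (adjusted p = 0.000572 and 1.21e-08), from a rise in the knockout and falls in the clones. DNAJC3 fell in all 3, by less in the knockout, with differences of 0.19 and 0.17 (adjusted p = 0.00938 and 0.0286), the second of which became 0.069 (adjusted p = 0.443) with chromosome medians subtracted. EIF2AK3 had differences of -0.55 and -0.21 (adjusted p = 8.08e-11 and 0.0322), and CRELD1 of -0.48 and -0.23 (adjusted p = 5.76e-06 and 0.0456). SEC24D passed against both clones with opposite signs, at -0.26 and 0.30 (adjusted p = 5.92e-06 and 4.61e-06). HSPA5 in the knockout differed from clone 1 by -0.19 (adjusted p = 0.00223) and from clone 2 by 0.0040, with a 95% interval from -0.12 to 0.13.

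**Figure D5:**
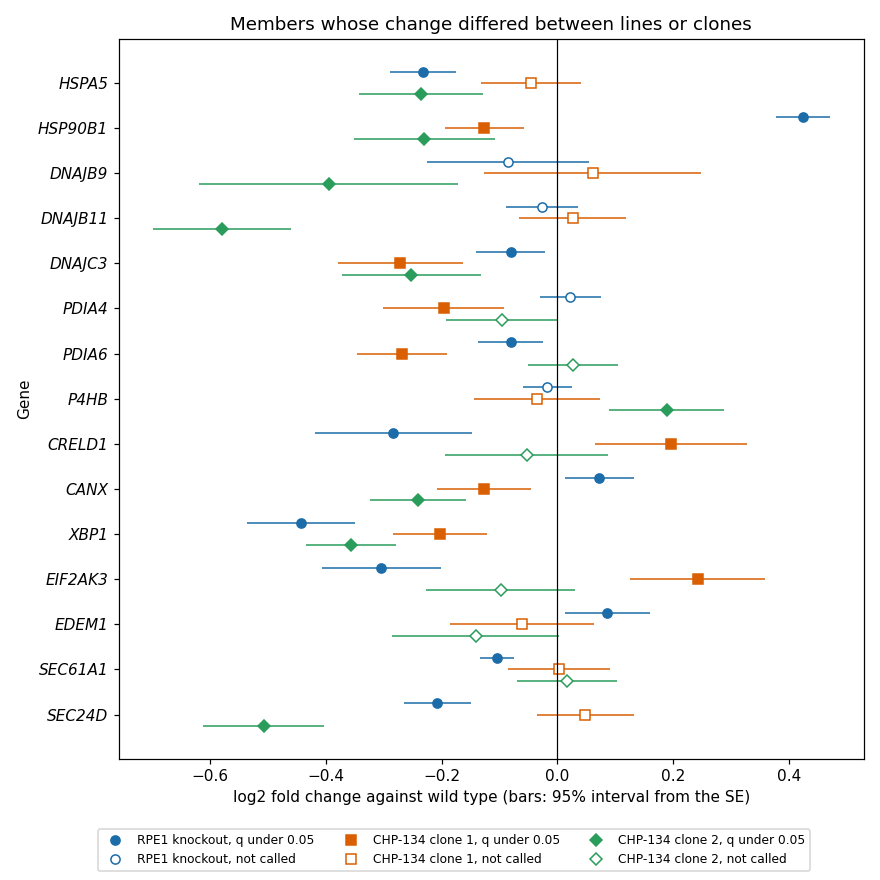
Log2 fold change against wild type (horizontal axis), with 95% intervals from the authors' SE, of the 15 members that passed a test of the difference between the RPE1 knockout (circles), CHP-134 clone 1 (squares) and CHP-134 clone 2 (diamonds), filled where q was under 0.05. HSP90B1 and CANX lie above 0 in the knockout (0.424 and 0.0726) and below 0 in both clones, and XBP1 lies below 0 in all 3.

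Over the 5 comparisons HSP90B1 was called in all 5, HSPA5, DNAJC3, SDF2L1 and XBP1 in 4, and 9 members in none. These counts ignore direction, and the like counts over all genes were not computed. HSP90B1 rose in the RPE1 knockout (0.424) and fell in the other comparisons. SDF2L1 rose in the RPE1 knockout and both CHP-134 clones and fell in TetOn clone 5 (-0.29). HSPA5, DNAJC3 and XBP1 fell wherever they were called. HSPA5 had values of -0.232 in the RPE1 knockout, where TRIM37 was lower, and of -0.228 and -0.235 in the TetOn clones, where TRIM37 was higher, in the authors' deposited tables. XBP1 was likewise below 0 in the 5 comparisons and called in all but TetOn clone 4. The 9 members without a call were MANF, PPIB, CRELD2, UGGT1, ERN1, HERPUD1, SYVN1, DERL1 and SEC61B, of which UGGT1, ERN1 and HERPUD1 were not usable in every table.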

How the data were processed

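RNA was sequenced from 39 libraries in 9 groups, and the authors deposited 5 tables of their own comparisons. Reads were aligned and compared with STAR and DESeq2 as far as the submitters' processing notes name tools, with no versions. The build, annotation, strand setting and counting rule: not given in the sources used here. Per the file headers, the authors give a mean count per gene (a scaled signal whose scaling is not stated), a log2 fold change with its SE, and a q-value. Whether fold changes were moderated is not stated, and the tables do not name the numerator, so direction was read from TRIM37.

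The q-values were used as deposited. Recomputing them from log2 fold change over SE called 6959 genes against 6963 in the RPE1 knockout, and gave each usable member the same call in all 5 tables. Comparisons were set against each other by subtracting log2 fold changes and dividing by the combined SE (square root of the sum of both squares), with a two-sided normal p and Benjamini-Hochberg adjustment over all genes usable in both tables; this code was tested on simulated data. Neighbours, called measured above, are the 10 nearest usable genes on each side with a mean count of at least 100. EDEM1 had 16 to 18 neighbours instead of 20. Analysis used Python 3.11.15, numpy 2.4.6, pandas 2.3.3 and scipy 1.17.1.

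All 32 members are named, and of each of 7 related lists up to 2 called genes per comparison with the smallest q. Members and lists were chosen with earlier results of these data known. HSP90B1 and PDIA3 have pseudogene copies of similar sequence, and without a stated strand setting reads of antisense partners cannot be told apart. Alternatives were other thresholds, filters, a rescaled null, subtraction of the median of all genes or of a chromosome, and, chosen after seeing the data, of neighbouring genes. Protein ends, which had been planned, were not analysed here.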

Additional observations from a re-analysis of the deposited data

Results flagged for a closer look

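Of the members, 8 differed between the CHP-134 clones, by a test of the difference itself. The differences of log2 fold changes, clone 2 minus clone 1, were -0.19 for HSPA5, -0.46 for DNAJB9, -0.61 for DNAJB11 and -0.56 for SEC24D. They were 0.30 for PDIA6, 0.22 for P4HB, -0.15 for XBP1 and -0.34 for EIF2AK3.

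Another 5 results, of 28 members tested, differed between the RPE1 knockout and both CHP-134 clones with 1 sign. The share of all genes that did so was not computed. The smaller of the 2 differences was 0.55 for HSP90B1, 0.17 for DNAJC3 and 0.20 for CANX. It was -0.23 for CRELD1 and -0.21 for EIF2AK3. The causes of these differences were not tested.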

How the results depend on the processing

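The counts of members called stayed within 1.5 times the reported count in all 5 comparisons at a q under 0.1, with a mean count of at least 100, with genes of every Status kept, and with the median of all genes, of the chromosome or of the 20 neighbouring genes subtracted. At a q under 0.01 the count was 6 in CHP-134 clone 1 and 2 in TetOn clone 4, and the differences passed were 4 between the CHP-134 clones and 5 between the RPE1 knockout and clone 2. With a change of at least 1.5-fold also required, the count was 1 in the RPE1 knockout and 0 in each of the other 4 comparisons, which follows from the small size of the changes. With the null rescaled to the central spread, the count was 1 in the RPE1 knockout, 1 in CHP-134 clone 1 and 0 in clone 2, and the differences passed were 2 between the CHP-134 clones, 1 against clone 1 and 1 against clone 2, which follows from the wider null; TetOn clone 4 kept 4 calls and TetOn clone 5 kept 6.

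HSP90B1 in the RPE1 knockout reversed to -0.088 with the chromosome median subtracted and to -0.15 with the neighbours' median subtracted. With the neighbours' median subtracted, values also reversed in the RPE1 knockout for PDIA3 (0.072), PDIA4 (-0.096) and PDIA6 (0.025), and in CHP-134 clone 2 for DNAJB11 (0.096), P4HB (-0.052) and SEL1L (0.12); the cause was not tested. The short core CCACG lay in 21 of 28 windows (75.0%) against 42.1% of genes.

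No paired analysis was possible because the deposited tables hold no value per library. For the same reason no replicate was left out, no other normalization was run, and the depth behind each value is unknown.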
